A study of Mus musculus with 16 samples.

Results

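The extracellular matrix genes described here are 41 genes for collagens, elastic fibre proteins, small proteoglycans, matricellular glycoproteins and the enzymes that build collagen, measured in whole dorsal skin. They were selected on the measured values, as genes whose response to UVB within each sex and whose level in no-UVB skin of males and females had already been seen. Those comparisons are therefore given as descriptions, with no *p* value. Irradiated males are compared with irradiated females with *p* values. That difference is made up of the same comparisons, so its *p* values, also those of ratios, are no independent test. All 41 were found among the 55359 gene rows of the deposited tables, and all 41 had enough reads to be tested in every comparison.

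The skin came from 16 WT C57Bl/6 mice (C57Bl/6N in the paper) aged 8 weeks. The paper gives telogen, the resting stage of hair follicles, for the dorsal skin of its melanocyte migration experiments. Whether each of these 16 mice was at that stage was not examined, and 2 no-UVB males had raised hair markers, as described below. The 4 groups of 4 mice were males and females irradiated with UVB 3 times, once per 2 days, and males and females without UVB, and no group carried any other allele or agent. Irradiated skin was taken within hours of the third exposure, so that a single time point was sampled. Whole skin was used, and the labels do not say whether mice shared a litter or cage.

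Fibroblasts of the dermis make most of the collagen of skin. Collagen chains are hydroxylated and folded into triple helices in the endoplasmic reticulum, secreted, trimmed at their ends, assembled into fibrils and cross-linked by lysyl oxidases. Small proteoglycans and matricellular proteins attach to the fibrils, while fibrillins and elastin form a separate elastic network. Levels are given as CPM, the reads of a gene scaled to a fixed total of reads on genes for each mouse, after TMM scaling, which corrects for differences in library composition. A gene is called higher or lower when edgeR's quasi-likelihood test gave a Benjamini-Hochberg adjusted *p* under 0.1 over all genes tested.

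Per mouse, 16495776 to 33404831 reads lay on genes, with a median of 21767339. The matrix gene with the fewest reads, *Fbn2*, had at least 15 in every mouse, and *Col1a1* had at least 47515. One irradiated female, replicate 2, stood apart from the other 3 of its group: it had the highest CPM of the group in 30 of the 41 genes, and irradiated female replicate 1 had the lowest in 29. Calls that change without replicate 2 are given with and without it. Markers of the growing hair follicle, which would be low in resting follicles, stood apart in no-UVB male replicates 3 and 4, at a summed 31.6 and 53.1 CPM beside 2.41 to 7.27 in the other 14 mice. Of these, *Krt71* averaged 15.3 CPM in no-UVB males and at most 0.599 in the other groups, and *Krt85* was at 0 in 12 mice. Counts are therefore also given without these 2 males, an alternative chosen after seeing the data. In bulk skin, fewer cells of a type and less RNA per cell cannot be told apart.

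The 41 genes together took up a large part of the transcripts of no-UVB male skin. Without any scaling between libraries, they held 10.5, 10.4, 9.94 and 9.76% of the reads on genes in the 4 no-UVB males and 3.86, 3.89, 5.09 and 4.31% in the irradiated males. In no-UVB females the share was 3.34, 3.2, 3.5 and 3.31%, and in irradiated females it was 2.01, 3.41, 2.41 and 2.72%. Every no-UVB male was thus above every other mouse, and irradiated males were above no-UVB females in all 4 mice. The irradiated females overlapped the no-UVB females through replicate 2. Of all counts after TMM scaling, the mean share was 10.6% in no-UVB males, 4.46% in irradiated males, 3.11% in no-UVB females and 2.62% in irradiated females.

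**Figure D1:**
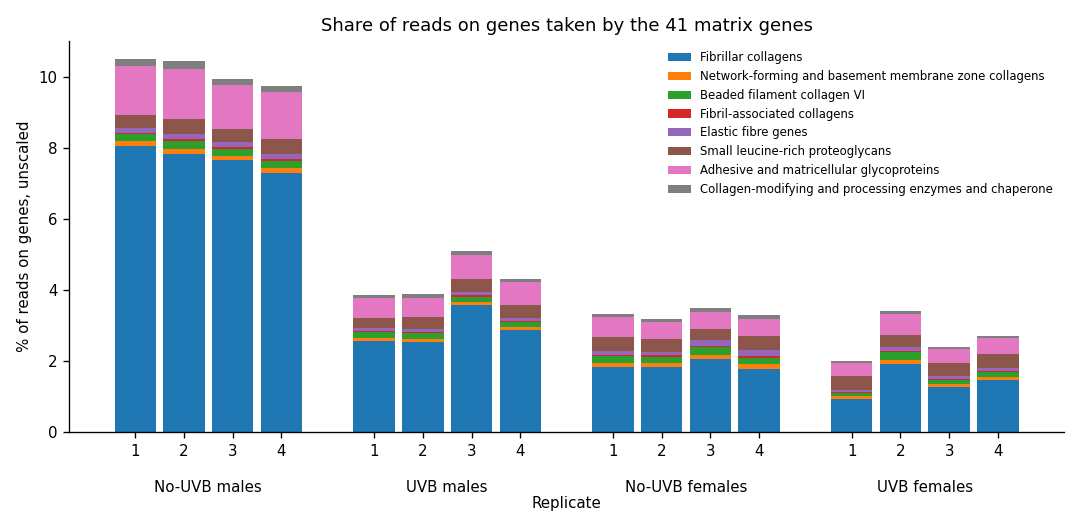
Share of reads on genes (%, unscaled) held by the 41 matrix genes in each of the 16 mice, with the bars stacked by role. No-UVB males lie between 9.76 and 10.5% and every other mouse between 2.01 and 5.09%, with fibrillar collagens forming the largest block of each bar.

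Most of the 41 genes were lower in irradiated than in no-UVB males, while most were not called in females. In males 33 genes were called lower and 1 higher, with 7 not called, where 30.5% of all 16535 genes tested were called lower and 29.0% higher. Their log2 fold changes ran from -1.66 to 1.68 with a median of -0.59, beside a median of -0.02 over all genes, and 8 genes were called lower by more than 1 on the log2 scale, as were 3.31% of all genes. The 4 irradiated males lay below all 4 no-UVB males in 29 genes and above them in 1, and the share of all genes so apart was not counted. Without no-UVB male replicates 3 and 4, 29 genes were called lower and 3 higher in irradiated males, beside 27.1% and 28.9% of all genes, and the median was -0.60. In females 10 genes were called lower and 1 higher, where 10.6% of the 16883 genes tested were called lower and 12.8% higher, and the median log2 fold change was -0.31. The irradiated females lay below all no-UVB females in 3 genes and above them in 1, and the groups overlapped in 37, again with no count over all genes. Without irradiated female replicate 2, the median was -0.48 and 22 genes were called lower, beside 10.3% of all genes. The count of 10 fell to 3 without irradiated female replicate 1 or replicate 3, to 6 without replicate 4, and to 5 without no-UVB female replicate 3 or 4. In those fits the share of all genes called lower was also smaller, at 7.46, 7.09, 7.55, 8.18 and 8.19% in that order, so that 3 of 41 was near the share of all genes.

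**Figure D2:**
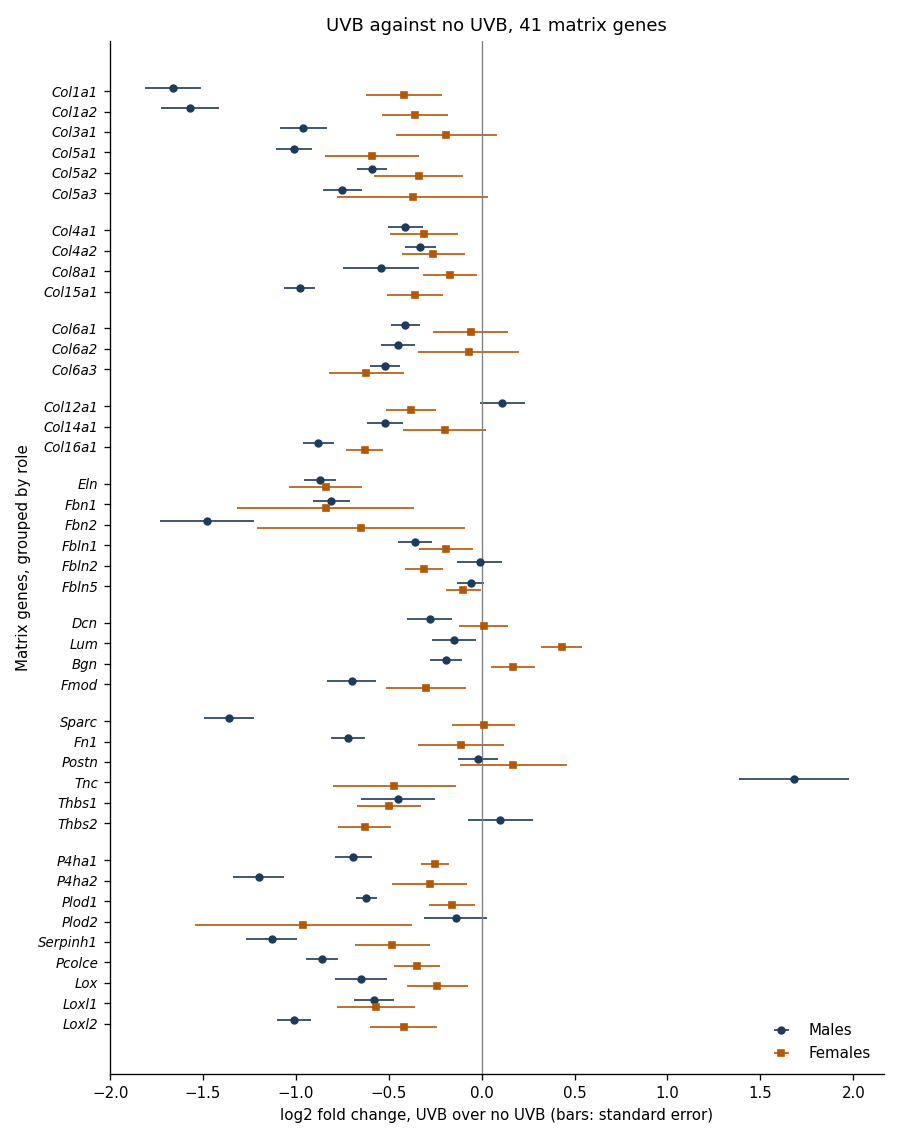
Log2 fold change of UVB over no UVB for each of the 41 genes in males (circles) and females (squares), grouped by role, with bars for the standard error of the fit. In males the values run from -1.66 (*Col1a1*) to 1.68 (*Tnc*), and those of females lie between -0.96 (*Plod2*) and 0.43 (*Lum*).

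Between the sexes, no-UVB males had higher levels of 5 of 6 fibrillar collagens, all but *Col5a3*, and of 7 of 9 genes for collagen-modifying enzymes and chaperones. Of the 41 genes, 17 were called higher and 2 lower in no-UVB males than in no-UVB females, where 7.21% of all 17406 genes tested were called higher and 4.58% lower. The median log2 fold change was 0.32, and 8 genes were called higher by more than 1, as were 1.13% of all genes. All 4 no-UVB males were above all 4 no-UVB females in 19 genes and below them in 0, and the share of all genes so apart was not counted. With only no-UVB male replicates 1 and 2, 16 genes were called higher and 1 lower, beside 6.1% and 3.22% of all genes. After irradiation, 11 genes were called higher in males than in females and 0 lower, where 12.8% of all genes were called higher and 12.5% lower. At an unadjusted *p* under 0.05 from the same edgeR test the counts were 13 and 0, beside 2778 and 2799 of all 17406 genes, and DESeq2 called 12 and 0, beside 15.6% and 11.5% of all genes. The median log2 fold change was 0.13, and it was -0.03 without irradiated female replicate 1. That comparison was not named in the selection of the genes, but it follows from those that were. It is the no-UVB difference plus the male response minus the female response, so its *p* values are no independent test of the 41 genes. Without irradiated female replicate 2, 17 genes were called higher and 0 lower in irradiated males, beside 10.2% and 9.35% of all genes. The response to UVB was called more negative in males than in females for 9 genes and more positive for 1, where 4.25% and 2.75% of all genes were so called. With TMM computed without the 41 genes, those shares of all genes were 3.56% and 4.57%, and the counts were 9 and 2. The count of 9 fell to 3 without no-UVB male replicate 2 or irradiated male replicate 1, to 4 without no-UVB male replicate 1, irradiated male replicate 2, or no-UVB female replicate 1 or 2, and to 5 without irradiated female replicate 1 or 2. The share of all genes called more negative was smaller in those 8 fits too, at 1.7 to 3.41%. Without no-UVB male replicates 3 and 4 together it was 10, and 3 genes were more positive, beside 5.73% and 4.6% of all genes.

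**Figure D3:**
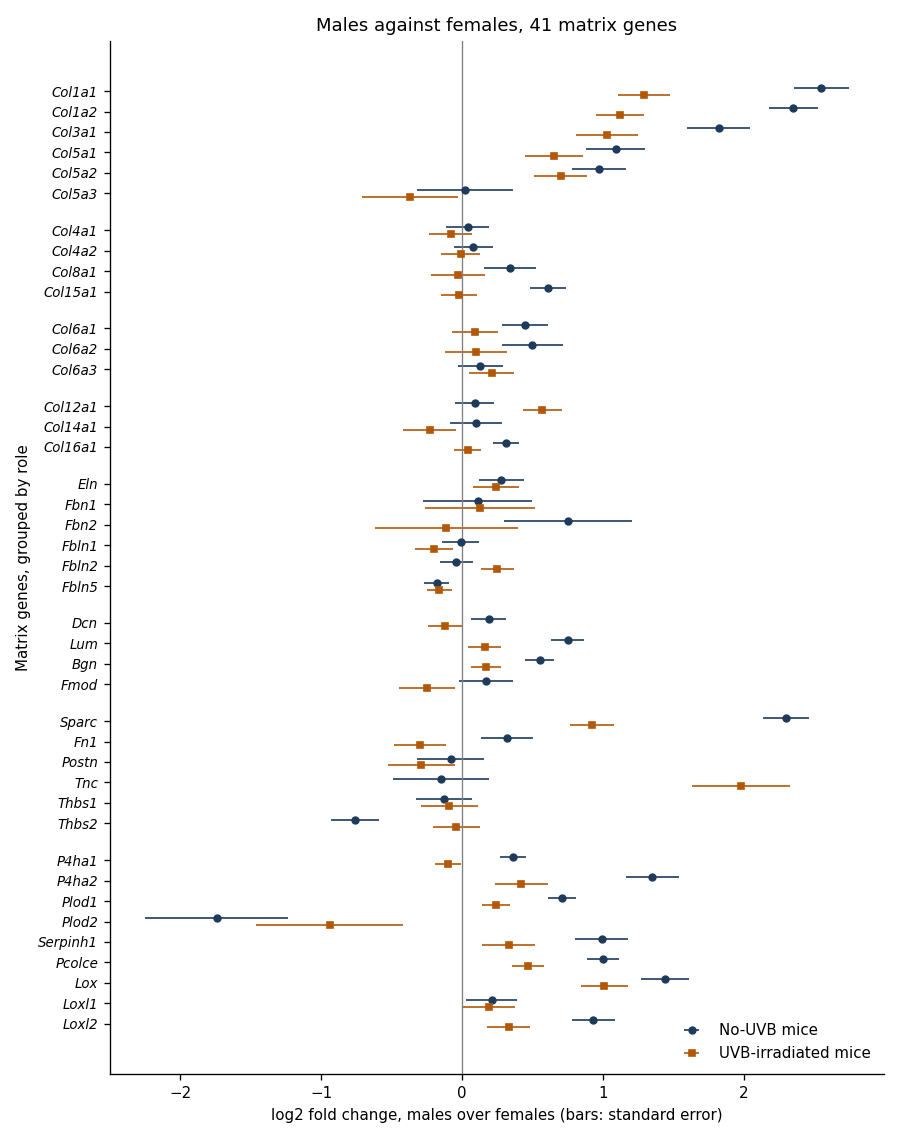
Log2 fold change of males over females for each of the 41 genes in no-UVB mice (circles) and in UVB-irradiated mice (squares), grouped by role, with bars for the standard error of the fit. *Col1a1* lies at 2.55 in no-UVB and at 1.29 in irradiated mice, whereas *Tnc* lies at -0.15 and at 1.98.

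The fibrillar collagens, which form the rope-like fibrils of the dermis, include the 3 genes with the highest mean CPM of the 41, *Col1a2*, *Col1a1* and *Col3a1*. All 6 were called lower in irradiated males, 0 of 6 were called in irradiated females, and 5 of 6 were called higher in males both without UVB and after it. With UVB, 30.5% of all genes were called lower in males, and 10.6% lower and 12.8% higher in females. Of all genes, 7.21% were called higher in males without UVB and 12.8% after it. These shares also stand beside the counts of the role groups that follow. After UVB the ranges of the sexes overlapped for *Col5a1* and *Col5a2*. *Col1a1* (ENSMUSG00000001506.11, GRCm39 chromosome 11 from 94827050 to 94843868), the α1 chain of type I collagen, was at 31015, 30364, 29694 and 27260 CPM in no-UVB males and at 8259, 7953, 11804 and 8804 in irradiated males. In females it was at 4892, 5156, 5257 and 4953 without UVB and at 2443, 5031, 3450 and 4102 after UVB. The male groups did not overlap, and the lowest irradiated male was still above the highest female of either group. The log2 fold change with UVB was -1.66 (standard error 0.152) in males, a fold of 3.16, and -0.42 (0.204) in females. Between irradiated males and irradiated females it was 1.29 (0.185), with an adjusted *p* of 0.000413 from edgeR's quasi-likelihood test.

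*Col1a2* (chromosome 6 from 4504814 to 4541555), the α2 chain that pairs with *Col1a1* in type I collagen, followed the same order. Its CPM was 30617, 30069, 28411 and 27880 in no-UVB males and 8248, 8044, 12355 and 10037 in irradiated males. In no-UVB females it was 5614, 5814, 6017 and 5463, and in irradiated females 3227, 5610, 4184 and 4790. All irradiated males were below the no-UVB males and above all females, and the female groups overlapped. The log2 fold change with UVB was -1.57 (0.157) in males and -0.36 (0.178) in females, and males were higher by 2.35 (0.175) without UVB. After irradiation the difference between the sexes was 1.12 (0.168), with an adjusted *p* of 0.000619 in edgeR. By mean CPM, *Col1a1* and *Col1a2* ranked 1 and 2 of all genes in no-UVB male skin, 5 and 4 in irradiated males, 6 and 3 in no-UVB females, and 11 and 9 in irradiated females.

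*Col3a1*, the single chain of type III collagen, which mixes with type I in thin fibrils, lies on chromosome 1 from 45350698 to 45395840. It was at 19978 ± 1613 CPM (SD, n = 4) in no-UVB males, 10097 ± 1132 in irradiated males, 5666 ± 567 in no-UVB females and 4935 ± 2233 in irradiated females. The wide spread of the last group came with 8162 CPM in replicate 2 beside 3020, 4184 and 4375 in the others. Its difference between irradiated males and females was 1.03 on the log2 scale (0.221), with an edgeR adjusted *p* of 0.00596. *Col5a2*, whose end lies 16713 bases from that of *Col3a1* on the opposite strand, had log2 fold changes with UVB of -0.59 (0.0797) in males and -0.34 (0.238) in females. Without irradiated female replicate 2 the female values of *Col3a1*, *Col5a2*, *Col1a1* and *Col1a2* were -0.55, -0.67, -0.60 and -0.49, and all were called lower.

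**Figure D4:**
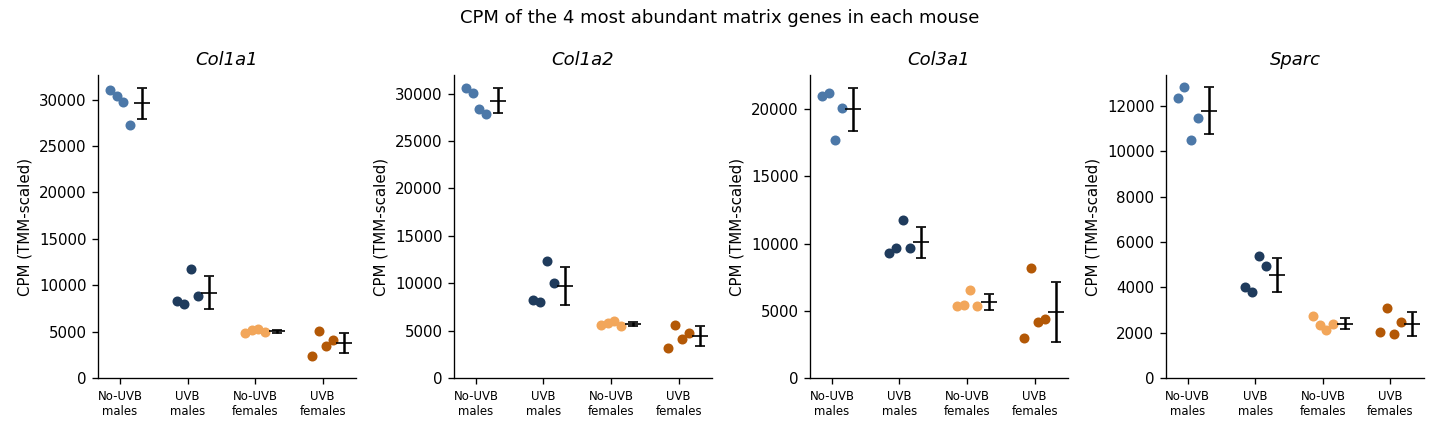
CPM (TMM-scaled) of *Col1a1*, *Col1a2*, *Col3a1* and *Sparc* in each mouse (points, 4 per group), with the mean and SD beside them. No-UVB males stand above all other mice in each panel, and for *Col3a1* irradiated female replicate 2 stands at 8162 CPM above the other 3 of its group.

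*Col5a1*, the type V chain that sits inside type I fibrils and sets their width, was called lower in irradiated males and higher in no-UVB males than in no-UVB females. It was at 878, 944, 872 and 861 CPM in no-UVB males and 406, 433, 516 and 378 in irradiated males, which did not overlap. No-UVB females were at 297, 371, 516 and 484, and irradiated females at 184, 414, 248 and 254. The log2 fold change was -1.01 (0.0978) in males and -0.59 (0.253) in females, where the groups overlapped. The female value was -0.86 (0.206) without irradiated female replicate 2, and it was called lower. *Col5a3* was the only fibrillar collagen not called higher in no-UVB males, at 0.02 (0.339), and it was at -0.75 (0.105) with UVB in males. In females it was at -0.37 (0.406), and at -0.91 (0.331) without irradiated female replicate 2, and was not called in either fit.

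The proportions of the abundant chains also differed between groups. *Col3a1* CPM divided by *Col1a1* CPM was 0.676 ± 0.0594 in no-UVB males, 1.11 ± 0.0884 in irradiated males, 1.12 ± 0.0836 in no-UVB females and 1.28 ± 0.237 in irradiated females (SD, n = 4 each). The no-UVB males, at 0.595 to 0.736, were below every other mouse, since the lowest ratio elsewhere was 0.998. Irradiated males and females overlapped in this ratio, with a two-sided exact permutation *p* of 0.229 (0.229 adjusted over the 2 ratios so tested). Per kilobase of transcript, the level of *Col1a1* relative to *Col1a2* was 0.914 ± 0.0249 in no-UVB males, 0.864 ± 0.0505 in irradiated males, 0.799 ± 0.0147 in no-UVB females and 0.753 ± 0.0534 in irradiated females.

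The promoters of 3 of these genes are shown because *Col1a1* had the largest decrease in irradiated males and *Col3a1* is another of the most abundant collagens, while *Tnc*, for the glycoprotein tenascin-C, was the gene called higher there. Each is the 200 bases before the start of the gene's canonical transcript in GRCm39 (GENCODE M39), 5′ to 3′ on the strand of the gene, at chr11:94826850-94827049 (plus strand), chr1:45350498-45350697 (plus) and chr4:63965444-63965643 (minus). Capitals mark matches, on either strand, to the CCAAT box. That box reads ATTGG on the other strand. Also marked are the TATA box with the letters TATAAA, and the AP-1 site, TGANTCA.
*Col1a1*: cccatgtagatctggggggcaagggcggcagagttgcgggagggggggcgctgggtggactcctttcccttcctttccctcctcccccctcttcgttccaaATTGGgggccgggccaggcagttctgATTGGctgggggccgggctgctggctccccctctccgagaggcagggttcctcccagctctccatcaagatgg
*Col3a1*: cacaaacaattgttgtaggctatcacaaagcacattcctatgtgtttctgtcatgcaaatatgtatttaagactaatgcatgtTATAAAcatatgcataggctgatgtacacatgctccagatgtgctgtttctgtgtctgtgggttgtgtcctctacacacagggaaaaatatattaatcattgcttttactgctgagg
*Tnc*: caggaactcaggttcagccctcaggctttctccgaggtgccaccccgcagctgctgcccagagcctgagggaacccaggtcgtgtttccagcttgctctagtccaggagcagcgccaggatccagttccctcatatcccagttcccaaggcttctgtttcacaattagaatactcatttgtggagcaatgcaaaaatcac
The *Col1a1* window held 2 matches to the CCAAT box, both read on the other strand, the nearer 69 bases before the start. That of *Col3a1* held 1 match to TATAAA, 112 bases before the start. These are matches of letters, and whether they act was not tested. Bases after the annotated start were not read, so a window without a match does not show that a gene lacks the box. Over all 41 genes, 12 windows (29.3%) held a CCAAT box, 3 (7.32%) a TATA box and 1 (2.44%) an AP-1 site. The same windows of 14960 protein-coding genes tested held them in 31.5, 6.18 and 4.16%.

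Basement membrane zone and network-forming collagens, which line epithelia and vessels, had a median log2 fold change of -0.47 in irradiated males. All 4 were called lower in irradiated males, 0 in irradiated females, and 1, *Col15a1*, was called higher in no-UVB males than in no-UVB females. Of all genes, 30.5% were lower in irradiated males, 10.6% lower in irradiated females and 7.21% higher in no-UVB males. Without irradiated female replicate 2, *Col4a1* (-0.51), *Col4a2* (-0.45) and *Col15a1* (-0.53) were also called lower in irradiated females. *Col4a1*, a main chain of the basement membrane network and the most abundant of them, was at 644, 689, 538 and 534 CPM in no-UVB males and 407, 489, 442 and 444 in irradiated males. Females had 539, 485, 593 and 725 without UVB and 413, 645, 386 and 434 with it. Only the male groups were apart, and the log2 fold change was -0.41 (0.0968) in males and -0.31 (0.181) in females. *Col4a2*, whose start overlaps that of *Col4a1* by 356 bases on the opposite strand, was at -0.33 (0.0835) and -0.26 (0.171).

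*Col15a1*, a collagen of the zone just outside basement membranes, had the widest response of this group in both sexes. Its CPM was 368, 385, 307 and 310 in no-UVB males and 164, 170, 180 and 173 in irradiated males. No-UVB females had 193, 213, 240 and 252, and irradiated females 138, 228, 157 and 170. Irradiated males were thus within the range of irradiated females, and no-UVB males were above all others. With UVB, the log2 fold change was -0.98 (0.0826) for males against -0.36 (0.151) for females, and the responses differed by -0.63 (0.18), and after UVB the sexes differed by -0.02 (0.128), with an edgeR adjusted *p* of 0.944. *Col8a1*, a short-chain network collagen, was the least abundant, at 13.3 ± 3.87 CPM in no-UVB males and 9.13 ± 1.5 in irradiated males, and its ranges overlapped. It was not called in males without no-UVB male replicates 3 and 4, at -0.16 (0.164).

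Type VI collagen forms beaded filaments that link cells to the fibrils, and its 3 chains were called lower in irradiated males. In irradiated females 1 of the 3, *Col6a3*, was called lower. *Col6a1* was at 709, 803, 704 and 804 CPM in no-UVB males and 571, 555, 599 and 510 in irradiated males. In no-UVB females it was at 565, 553, 573 and 525, and in irradiated females at 386, 808, 456 and 456. The irradiated males lay below all no-UVB males, and among irradiated females replicate 2 was above all no-UVB mice of its sex and the other 3 were below them. The female log2 fold change was -0.06 (0.204) with all mice and -0.35 (0.102) without replicate 2, when it was called lower; for *Col6a2* the values were -0.07 (0.271) and -0.47 (0.125). Irradiated males exceeded the other 3 irradiated females by 0.37 (0.0879) for *Col6a1* and 0.50 (0.114) for *Col6a2*, with edgeR adjusted *p* values of 0.014 and 0.0119.

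*Col6a3* CPM was 640, 752, 722 and 683 in no-UVB males and 438, 508, 509 and 462 in irradiated males, which were apart. The females had 618, 519, 769 and 646 without UVB and 300, 590, 372 and 393 with it, which overlapped through replicate 2. Its log2 fold change was -0.52 (0.0801) in males and -0.62 (0.201) in females, and no difference between the sexes was called with all mice. Irradiated males were higher by 0.43 (0.123) without irradiated female replicate 2, with an edgeR adjusted *p* of 0.0308. The female call was kept in 3 of the 8 fits that left out 1 mouse each.

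Fibril-associated collagens decorate the surface of fibrils, and *Col14a1* and *Col16a1* were called lower in irradiated males while *Col12a1* was not. *Col14a1*, the most abundant of the 3, was at 176, 238, 227 and 242 CPM in no-UVB males and 138, 162, 152 and 156 in irradiated males. Females had 166, 199, 206 and 252 without and 142, 274, 142 and 156 with UVB, with replicate 2 again at the top. Its female log2 fold change was -0.20 (0.221) with that mouse and -0.49 (0.129) without it, when it was called lower. *Col16a1* was lower in irradiated mice of both sexes with no overlap. It was at 234, 240, 238 and 216 CPM in no-UVB males and 115, 108, 141 and 132 in irradiated males. The female values were 189, 188, 204 and 168 against 101, 121, 127 and 134. Its log2 fold changes were -0.88 (0.0836) and -0.63 (0.0982), and it was, with *Thbs1* and *P4ha1*, 1 of the 3 genes in which all irradiated females lay below all no-UVB females. For *Col12a1*, irradiated males exceeded irradiated females by 0.57 (0.139) on the log2 scale with an edgeR adjusted *p* of 0.0118, at 53 ± 4.39 and 35.6 ± 6.58 CPM, and the difference without UVB was 0.09 (0.137). The difference between these values was not called with all mice, and was called, at 0.63 (0.193), without no-UVB male replicates 3 and 4, when *Col12a1* was also called higher in irradiated males, at 0.29 (0.0904). Its call of lower in irradiated females, at -0.38 (0.135), was kept in 2 of 8 fits without 1 mouse.

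Among the elastic fibre genes, the median log2 fold change was -0.58 in males and -0.48 in females. In males 4 of 6 were called lower (*Eln*, *Fbn1*, *Fbn2* and *Fbln1*), in females 2 of 6 (*Eln*, and *Fbln2* with a call kept in 4 of 8 fits without 1 mouse), and 0 of 6 differed by sex in either treatment at the call threshold. *Eln*, which encodes the tropoelastin monomer, was at 389 ± 26 CPM in no-UVB males, 210 ± 23.7 in irradiated males, 320 ± 84.7 in no-UVB females and 178 ± 27.6 in irradiated females. Its log2 fold change was -0.87 (0.0885) in males and -0.84 (0.198) in females.

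*Fbn1*, the main fibrillin of the microfibrils that scaffold elastin, was at 529, 660, 591 and 651 CPM in no-UVB males and 395, 346, 332 and 297 in irradiated males. Its no-UVB females were far apart, at 233 and 327 CPM in replicates 1 and 2 and at 820 and 864 in replicates 3 and 4. Irradiated females were at 164, 553, 285 and 245. The log2 fold change was -0.81 (0.0991) in males and -0.84 in females, where the standard error was 0.475 and the change was not called. *Col5a3*, *Fbn2* and *Plod2* showed the same split of the no-UVB females, with the lower of replicates 3 and 4 at 1.9, 1.62 and 3.39 times the higher of replicates 1 and 2, beside 2.51 for *Fbn1*.

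*Fbn2*, a fibrillin known best from developing tissue, was the least abundant of the 41 genes, at 6.56, 6.53, 5.45 and 3.49 CPM in no-UVB males and 2.64, 1.91, 1.85 and 1.2 in irradiated males. Females were at 2.21, 2.06, 3.57 and 5.45 without UVB and at 0.771, 4.93, 1.24 and 1.11 with it. The male groups were apart, with a log2 fold change of -1.48 (0.253), and the female groups overlapped only through replicate 2. The female log2 fold change was -0.65 (0.558) with that mouse and -1.64 (0.384) without it, when it was called lower. The fibulins, which bind elastin and microfibrils, moved less: *Fbln5*, needed for elastic fibre assembly, was at -0.06 (0.0751) in males and -0.10 (0.0937) in females and was not called in any of the comparisons.

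The small leucine-rich proteoglycans, which coat collagen fibrils and regulate their assembly, had a median log2 fold change of -0.23 in irradiated males and 0.09 in irradiated females. In males 3 of 4 were called lower, beside 30.5% of all genes, and in females 1 of 4, *Lum*, was called higher, beside 12.8%. *Dcn* (decorin), the most abundant of them, was at 2801, 3134, 2488 and 3269 CPM in no-UVB males and 1928, 2511, 2532 and 2517 in irradiated males. Females had 2725, 2470, 2212 and 2863 without and 2801, 2281, 2558 and 2666 with UVB. The ranges overlapped in both sexes, and the log2 fold change was -0.28 (0.12) in males, a call kept in 5 of 8 fits without 1 mouse, and 0.01 (0.132) in females. *Bgn* (biglycan), a close relative of *Dcn* encoded on the X chromosome, was at -0.19 (0.0855), a call kept in 3 of 8 fits. Without no-UVB male replicates 3 and 4 neither was called, with *Dcn* at the same -0.28 (0.132) and *Bgn* at -0.07 (0.0932).

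*Fmod* (fibromodulin), which binds type I collagen, was at 37.4, 43.5, 45.4 and 38.3 CPM in no-UVB males and 22.6, 22.4, 32.6 and 22 in irradiated males, with no overlap. No-UVB females were at 42.4, 40.1, 35.3 and 28.8 and irradiated females at 23.9, 19.5, 38.5 and 36.6. Its log2 fold change was -0.70 (0.131) in males and -0.30 (0.213) in females. *Lum* (lumican), which lies 42834 bases beyond *Dcn* on chromosome 10 and limits fibril width, was the gene called higher in irradiated females. It was at 454, 466, 357 and 423 CPM in no-UVB females and 517, 627, 559 and 577 in irradiated females, all of them above the no-UVB females. Males were at 666, 808, 607 and 779 without UVB and 521, 615, 683 and 730 with it, which overlapped. Its log2 fold changes were 0.43 (0.109) in females and -0.15 (0.118) in males, and *Lum* was higher by 0.75 (0.119) in no-UVB males than in no-UVB females.

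**Figure D5:**
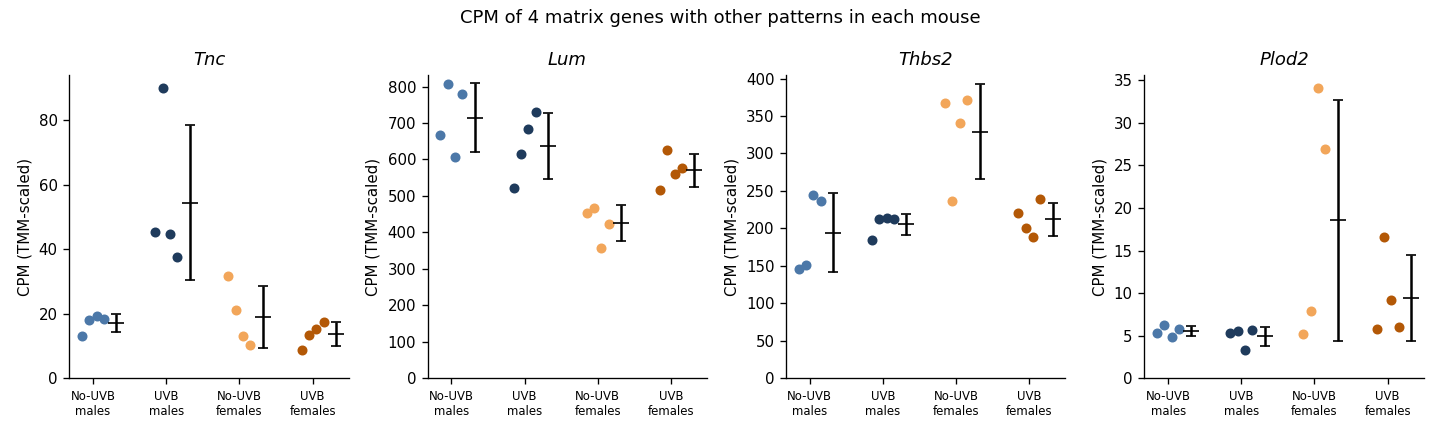
CPM (TMM-scaled) of *Tnc*, *Lum*, *Thbs2* and *Plod2* in each mouse (points, 4 per group), with the mean and SD beside them. *Tnc* lies at 37.7 to 90.1 CPM in irradiated males and no higher than 31.8 elsewhere, *Lum* has its lowest mean in no-UVB females, *Thbs2* has its highest mean there, and *Plod2* is at 34.1 and 26.9 CPM in no-UVB female replicates 3 and 4.

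Among the adhesive and matricellular glycoproteins, which carry signals between matrix and cells, the members went in different directions. In males *Sparc*, *Fn1* and *Thbs1* were called lower, *Tnc* was called higher, and *Postn* and *Thbs2* were not called. *Sparc* (chromosome 11 from 55285317 to 55314067), a collagen-binding glycoprotein, was at 12367, 12826, 10478 and 11479 CPM in no-UVB males and 4025, 3784, 5365 and 4951 in irradiated males. It was at 2725, 2358, 2119 and 2387 CPM in no-UVB females and 2041, 3114, 1964 and 2492 in irradiated females. The male groups were apart and above all females, and the female groups overlapped. The log2 fold change with UVB was -1.36 (0.137) in males and 0.01 (0.168) in females, and the difference of the responses was -1.38 (0.221). Irradiated males exceeded irradiated females by 0.92 (0.157), with an edgeR adjusted *p* of 0.00145. Per kilobase of transcript, *Sparc* stood at 5105 CPM in no-UVB males, between *Col1a2* at 5457 and *Col1a1* at 4989, and in irradiated females it was the highest of the 41 genes, at 1041 beside 887 for *Col3a1*.

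The level of *Sparc* relative to *Col1a1* was 0.399 ± 0.0325 in no-UVB males, 0.495 ± 0.0469 in irradiated males, 0.475 ± 0.064 in no-UVB females and 0.658 ± 0.12 in irradiated females. Irradiated females were above irradiated males in all 4 mice, with a two-sided exact permutation *p* of 0.0286 (0.0572 adjusted over the 2 ratios so tested), the smallest that 4 against 4 mice allow.

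*Tnc* (tenascin-C, chromosome 4 from 63878014 to 63965443), an anti-adhesive glycoprotein known from wounds and inflamed skin, was at 13.1, 18, 19.2 and 18.4 CPM in no-UVB males and 45.4, 90.1, 44.8 and 37.7 in irradiated males. No-UVB females were at 31.8, 21.1, 13.2 and 10.3, and irradiated females at 8.74, 13.4, 15.3 and 17.4. All irradiated males were above all other mice. With UVB, the log2 fold change was 1.68 (0.295) in males, a fold of 3.2, and -0.47 (0.332) in females. Irradiated males exceeded irradiated females by 1.98 (0.345), with an edgeR adjusted *p* of 0.00244.

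*Thbs2* (thrombospondin 2), which inhibits vessel growth and takes part in fibril assembly, was at 146, 151, 244 and 237 CPM in no-UVB males and 184, 212, 214 and 212 in irradiated males. In females it was at 367, 236, 341 and 372 without UVB and at 220, 200, 189 and 239 after it. It was called lower in irradiated females, at -0.63 (0.144), although the ranges met at 236 and 239 CPM. It was 1 of the 2 genes called lower in no-UVB males than in no-UVB females, at -0.76 (0.169). Without no-UVB male replicates 3 and 4, the males with the higher *Thbs2* values of their group, *Thbs2* was called higher in irradiated males, at 0.51 (0.0786), beside 0.10 (0.174) with all males. *Thbs1*, an activator of latent TGF-beta, was called lower in both sexes, at -0.45 (0.2) in males and -0.50 (0.173) in females, and kept the call in 1 of 8 and 4 of 8 fits without 1 mouse. *Fn1*, the fibronectin on which collagen fibrils are laid down, was at -0.72 (0.0921) in males and -0.11 (0.232) in females. *Postn* (periostin) was at -0.02 (0.108) and 0.17 (0.288).

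Genes for enzymes and chaperones that act on collagen were called lower in irradiated males in 8 of 9 cases and in irradiated females in 3 of 9. The shares of all genes were 30.5% and 10.6%. In no-UVB skin 7 of 9 were called higher in males and 1, *Plod2*, lower, beside 7.21% and 4.58% of all genes. *Serpinh1*, which encodes the collagen-specific chaperone HSP47, was at 765, 917, 556 and 624 CPM in no-UVB males and 327, 347, 305 and 311 in irradiated males. Females were at 286, 298, 425 and 428 without and 205, 359, 226 and 232 with UVB. The lowest no-UVB male was above every other mouse, and the log2 fold change was -1.13 (0.138) in males and -0.48 (0.204) in females. Leaving out irradiated female replicate 2, the female value was -0.70 (0.162) and was called lower, and irradiated males exceeded irradiated females by 0.54 (0.167), with an edgeR adjusted *p* of 0.0451 beside 0.235 with all mice.

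*P4ha2*, a catalytic subunit of the prolyl hydroxylase that stabilizes the triple helix, had the largest male response of this group. Its CPM was 92.2, 102, 64.5 and 70.2 in no-UVB males and 33, 34.7, 36.9 and 36.5 in irradiated males. It was 24.8, 27.5, 43.1 and 33.6 in no-UVB females and 22.7, 35.8, 22.8 and 23.9 in irradiated females. The no-UVB males were apart from all others, and the log2 fold change was -1.20 (0.137) in males and -0.28 (0.201) in females. Irradiated males exceeded irradiated females by 0.42 (0.189), with an edgeR adjusted *p* of 0.14, and without replicate 2 by 0.61 (0.18), with 0.0402. The other catalytic subunit, *P4ha1*, was called lower in both sexes with no overlap, at -0.69 (0.1) in males and -0.25 (0.0753) in females, where the call was kept in 4 of 8 fits without 1 mouse.

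*Lox*, the lysyl oxidase that starts the cross-linking of collagen and elastin, differed by sex in both treatments. It was at 333, 309, 261 and 292 CPM in no-UVB males and 180, 210, 222 and 138 in irradiated males. It was at 149, 88, 88.6 and 116 CPM in no-UVB females and 82, 104, 92.9 and 93.5 in irradiated females. The lowest irradiated male was above the highest irradiated female, and that difference was 1.01 (0.166) on the log2 scale with an edgeR adjusted *p* of 0.0013. Among its relatives, *Loxl2* was at -1.01 (0.0899) with UVB in males and *Loxl1* at -0.58 (0.108), and neither was called different between irradiated males and females with all mice. When irradiated female replicate 2 was left out, *Loxl2* was higher in irradiated males by 0.53 (0.121), with an edgeR adjusted *p* of 0.0123, and it was called lower with UVB in females, at -0.63 (0.13). The female call of *Loxl1*, at -0.57 (0.211), was kept in 2 of 8 fits without 1 mouse.

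*Plod2*, the lysyl hydroxylase that directs cross-links of the collagen ends, was the gene of this group that was not called in irradiated males. It was at 5.35, 6.25, 4.8 and 5.79 CPM in no-UVB males and 5.26, 5.55, 3.27 and 5.68 in irradiated males. The no-UVB females were at 5.24, 7.92, 34.1 and 26.9, with replicates 3 and 4 far above the rest, and irradiated females at 5.76, 16.6, 9.16 and 6.04. All irradiated males lay below all irradiated females, although the difference of -0.94 (0.522) had an edgeR adjusted *p* of 0.231. The call of lower in no-UVB males, at -1.74 (0.509), was kept in 12 of 16 fits that left out 1 mouse, and it was not made without no-UVB male replicates 3 and 4, when the value was -1.68 (0.697). *Plod1*, the hydroxylase of the helical part, was at -0.62 (0.0561) in males and -0.16 (0.123) in females with UVB, and the female value was -0.30 (0.0858), called lower, without irradiated female replicate 2. Irradiated males exceeded irradiated females by 0.24 (0.0982) for *Plod1*, with an edgeR adjusted *p* of 0.0978. That call was kept in 2 of 16 fits without 1 mouse. *Pcolce*, which speeds the trimming of procollagen ends, was at -0.86 (0.0862) and -0.35 (0.124), both called, the female call being kept in 2 of 8 fits without 1 mouse. Irradiated males exceeded irradiated females by 0.47 (0.112) with an edgeR adjusted *p* of 0.00999.

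Other genes of collagen synthesis that are not among the 41 were mostly called lower in irradiated males. Of 23 genes tested for collagen processing and secretion, 21 were called lower and 1 higher in irradiated males, and 4 lower and 1 higher in irradiated females. The shares of all genes called lower and higher were 30.5 and 29.0% in males and 10.6 and 12.8% in females. *Creb3l1*, a transcription factor of the secretory pathway that acts on type I collagen genes, was at 136 ± 9.93 CPM in no-UVB males, 48.1 ± 7.19 in irradiated males, 48.8 ± 11.4 in no-UVB females and 34.5 ± 4.09 in irradiated females. Its log2 fold change was -1.48 (0.103) in males and -0.49 (0.162) in females, and no-UVB males were higher than no-UVB females by 1.48 (0.145). *Adamts14*, a procollagen N-propeptidase, was at -1.16 (0.0732) in males and -0.87 (0.132) in females, and *P3h3*, of the prolyl 3-hydroxylase family, at -0.84 (0.0727) and -0.30 (0.0729). The gene called higher in males was *P4hb*, the other subunit of prolyl 4-hydroxylase, at 0.21 (0.0645), which is named after its values were seen. In no-UVB skin 15 of 25 of these genes were called higher in males and 1 lower, beside 7.21% and 4.58% of all genes.

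Of 22 other collagen genes tested in males, 16 were called lower and 1 higher, and of 23 tested in females, 9 were called lower and 1 higher. *Col4a6*, a chain of epithelial and smooth muscle basement membranes, was at -2.08 (0.148) in males and -1.91 (0.194) in females, and its neighbouring chain *Col4a5* at -1.13 (0.0843) and -0.93 (0.0971). *Col2a1*, the cartilage collagen, was called higher in both sexes at a very low level, with 0.127 ± 0.0616 CPM in no-UVB and 1.51 ± 0.222 in irradiated males, and 0.178 ± 0.0521 CPM in no-UVB and 1.36 ± 0.459 in irradiated females. Of 21 genes of TGF-beta signalling, the main inducer of matrix genes in fibroblasts, 15 were called lower and 1 higher in males, and 6 lower and 0 higher in females. For both lists, the shares of all genes called lower and higher were 30.5 and 29.0% in males and 10.6 and 12.8% in females. *Ltbp1*, *Ltbp2* and *Ltbp4*, of the latent TGF-beta binding protein family, were at -0.56 (0.0787), -0.66 (0.0828) and -0.53 (0.0672) in males and at -0.29 (0.0701), -0.65 (0.185) and -0.30 (0.092) in females.

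Marker genes of several cell types moved with the matrix genes, and their part in the results was not tested. Their counts stand beside 30.5% of all genes called lower and 29.0% higher with UVB in males, and 10.6% and 12.8% in females. Between no-UVB males and females, 7.21% of all genes were called higher and 4.58% lower. Fibroblast markers (such as *Pdgfra* and *Dpt*) were called lower in irradiated males in 10 of 10 cases, with a median log2 fold change of -0.59, and in irradiated females in 2 of 10, with -0.25. Their summed level was 2536 to 3132 CPM in no-UVB males, 1685 to 2226 in irradiated males, 2314 to 3195 in no-UVB females and 1838 to 2426 in irradiated females, and none was at 0 in any mouse. In no-UVB skin, where the 41 matrix genes held 10.6% of scaled counts in males and 3.11% in females, 2 of 10 fibroblast markers were called higher in males and the median log2 fold change was 0.07.

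Skeletal muscle markers were called lower in irradiated males in 7 of 8 cases, from a summed 19323 to 23955 CPM down to 12386 to 14370, and 4 of 8 were called higher in no-UVB males than in no-UVB females, which were at 12025 to 18872 CPM. In the same comparison 3 of 7 pericyte and smooth muscle markers were called higher, with a median log2 fold change of 0.28. Schwann cell markers were called lower in irradiated males in 6 of 6, adipocyte markers in 5 of 7, pericyte and smooth muscle markers in 5 of 7 with 1 higher, and endothelial markers in 0 of 8. Macrophage markers were called lower in 2 of 6, near the share of all genes, and in 1 of 6 in irradiated females. In irradiated females, 0 of 8 skeletal muscle, 0 of 6 Schwann cell, 0 of 7 adipocyte and 0 of 8 endothelial markers were called, and 2 of 7 pericyte and smooth muscle markers were called lower. Suprabasal keratinocyte markers were called higher in 6 of 6 in males, from 5147 to 7808 up to 16662 to 23439 CPM, and in 5 of 6 in females, from 4696 to 6952 up to 8824 to 12291 CPM. Basal keratinocyte markers were called higher in 3 of 6 and lower in 1 of 6 in males, and in 1 of 6 each way in females. Of 5 neutrophil markers tested, 4 were called higher in males and 2 in females, with *Ly6g* at 0 in 15 of 16 mice.

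Between irradiated males and irradiated females, where 12.8% of all genes were called higher and 12.5% lower, markers also differed. Schwann cell markers were called lower in males in 6 of 6 cases, adipocyte markers in 6 of 7, and fibroblast, skeletal muscle, and pericyte and smooth muscle markers in 2 each of 10, 8 and 7. Suprabasal keratinocyte markers were called higher in males in 5 of 6, basal keratinocyte markers in 4 of 6 and neutrophil markers in 3 of 5. Their part in the 11 matrix genes called higher in irradiated males was not tested. The UVB response was more negative in males for 5 of 8 skeletal muscle, 4 of 6 Schwann cell and 1 of 10 fibroblast markers. It was so for 1 of 7 pericyte and smooth muscle, 0 of 7 adipocyte and 0 of 8 endothelial markers, beside 4.25% of all genes. For 2 of 5 neutrophil markers it was more positive, beside 2.75%. The part of these markers in the responses of the matrix genes was not tested.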

How the data were processed

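The authors sequenced polyadenylated RNA of whole dorsal skin with a directional kit and aligned it with STAR to GRCm39. They deposited raw read counts for each mouse by Ensembl identifier, as 3 columns: without regard to strand, forward strand and reverse strand. The reverse strand was used here, as the other held 3.629 to 4.232% of the reads. Reads mapping to several places were listed as 0, so reads shared by similar genes cannot be seen. Names and positions came from GENCODE M39, which named 54749 of 55359 identifiers.

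Counts were fitted in R 4.3.3 with edgeR 4.0.16 (filterByExpr, TMM, robust quasi-likelihood test, Benjamini-Hochberg adjustment, threshold 0.1), with DESeq2 1.42.0 as an alternative. UVB responses came from separate male and female fits (8 mice each). All 16 mice entered the fit for the other comparisons, and no covariate was used. Alternatives were other scalings, count filters, thresholds and strand settings, a replicate block, 1 fit for all mice, and leaving out each mouse. Summed CPM used TMM over 16 mice, and levels per kilobase used the canonical transcript. The statistics were tested on simulated data. Figures were drawn with matplotlib 3.10.9.

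The 41 genes and the lists were chosen with earlier results of these data known. All 41 are named. Values of every mouse are given for the most abundant gene and the largest male and female change of each role group and for the 3 smallest adjusted *p* after irradiation (21 genes); of the other pathway lists, at most 3 genes with the smallest male *p* are named. Mice are the replicates, so *p* values reflect the spread between these mice.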

Additional observations from a re-analysis of the deposited data

Results flagged for a closer look

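In 9 of 124 groups of 4 mice tested, 1 mouse lay far from the other 3 by Dixon's test, which chance gives in about 1 of 20 groups. Irradiated female replicate 2 was the highest of its group for *Col6a1* (808 CPM), *Col14a1* (274 CPM), *Fbn2* (4.93 CPM) and *P4ha2* (35.8 CPM). Among irradiated males, replicate 1 was the lowest for *Dcn* (1928 CPM), *Thbs2* (184 CPM) and the summed small leucine-rich proteoglycans (2913 CPM), replicate 3 was the highest for *Fmod* (32.6 CPM), and replicate 2 was the highest for *Tnc* (90.1 CPM).

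By the interaction term of edgeR's fit over 16 mice, the response to UVB was called different between the sexes for 10 of the 41 genes. The threshold was an adjusted *p* under 0.1, at which 4.25% of all genes were called more negative in males and 2.75% more positive. The male response was more negative for *Sparc* by -1.38, *Col1a1* by -1.25, *Col1a2* by -1.23, *P4ha2* by -0.93, *Col15a1* by -0.63, *Lum* by -0.59, *Pcolce* by -0.53, *Plod1* by -0.47 and *P4ha1* by -0.46 on the log2 scale, and more positive for *Tnc* by 2.13. Without irradiated female replicate 2, *Pcolce* (-0.46), *P4ha1* (-0.44), *Lum* (-0.54) and *P4ha2* (-0.74) were no longer called. Over the 16 fits without 1 mouse, *Sparc*, *Col1a1*, *Col1a2* and *Tnc* were called in all 16, *Col15a1* and *Lum* in 10, *P4ha1* and *P4ha2* in 8, *Plod1* in 5 and *Pcolce* in 4. These are differences of the responses on which the genes were selected, so the calls are a description and no independent test.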

How the results depend on the processing

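Among the 21 genes with values of every mouse, the only ones so checked, no called gene changed direction under any alternative. The median over the 41 genes between irradiated males and females went from 0.13 to -0.03 without irradiated female replicate 1. A required log2 fold change past 1 left 8 genes lower in irradiated males, 0 higher and 0 lower in irradiated females, 8 higher and 1 lower in no-UVB males than females, 5 higher in irradiated males than females, and 3 with a more negative male response. The shares of all genes there were 3.31, 1.63, 1.08, 1.13, 0.781, 1.37 and 0.661% in that order. An adjusted *p* under 0.05 left 3 genes lower in irradiated females, 1 lower in no-UVB males, and 3 with a more negative male response, beside 6.79, 2.53 and 1.82% of all genes. DESeq2's Wald test called 16 genes lower in irradiated females and 3 with a more positive male response, beside 11.5 and 6.33% of all genes. With every gene of at least 1 count, 1 gene was lower in no-UVB males, beside 1.70%. The genes with a more positive male response numbered 2 with DESeq2's size factors, with TMM computed without the 41 genes, with at least 10 counts in every mouse, and with TMM computed without the 100 most abundant genes, an alternative chosen after seeing the data, beside 3.95, 4.57, 3.78 and 4.49% of all genes; the cause was not tested. Leaving out no-UVB male replicates 3 and 4, also chosen after seeing the data, gave 3 genes higher in irradiated males, 1 lower in no-UVB males and 3 with a more positive male response. TMM without the 41 genes put their summed level in no-UVB females at 32817 CPM.

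The replicate number as a block gave 2 genes with a more positive male response and 7 lower in irradiated females, beside 3.23 and 8.97% of all genes. Mice sharing only a number did not pair: their deviations correlated between -0.123 and 0.217, over 0.1 in 6 of 24 pairs.

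Leaving out each mouse in turn gave 1 to 2 genes higher and 29 to 33 lower in irradiated males (median log2 fold change -0.64 to -0.54). In females it gave 1 higher and 3 to 22 lower (-0.48 to -0.23), between no-UVB males and females 16 to 19 higher and 1 to 2 lower (0.29 to 0.38), between irradiated males and females 9 to 17 higher and 0 lower (-0.03 to 0.29), and for the difference of the responses 1 to 3 more positive and 3 to 9 more negative (-0.43 to -0.17). Over the same fits, the shares of all genes called higher and lower were 26.7 to 29.9% and 26.5 to 29.1% in irradiated males. They were 8.79 to 12% and 7.09 to 10.3% in irradiated females, and 4.33 to 7.89% and 2.45 to 5.36% between no-UVB males and females. Between irradiated males and females they were 7.46 to 13.3% and 8.28 to 13.4%. For the difference of the responses, 0.928 to 4.74% were more positive and 1.7 to 5.8% more negative. The 4 mice per group limit the precision of every value.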
